A study of Mus musculus with 30 samples.

Results

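The insulin and insulin-like growth factor (IGF) system was followed through 10 transcripts: the ligand Igf1, the receptors Igf1r, Insr and Igf2r, the docking proteins Irs1 and Irs2, the IGF-binding proteins Igfbp2, Igfbp4 and Igfbp5, and the protease Pappa. They were taken by gene name from a deposited table of 50600 genes. All 10 were among the 14646 genes that entered the tests, for which a mean of 5 or more normalized counts was required. The table covers both ovaries of 15 female C57BL/6 mice, 30 in all. In the treated group, 7 mice had received 3% dextran sulfate sodium (DSS) with their drinking water for 7 days while sexually immature, and the reference was 8 littermates that were not given DSS. DSS is a sulfated polysaccharide that injures the lining of the colon and is used to model colitis. The ovaries of both groups were collected after puberty, and an ovary holds follicles, corpora lutea, stroma, vessels and surface epithelium together. Neither the age in days nor the stage of the oestrous cycle is given in the sources used here.

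IGF1 made by growing follicles acts with follicle-stimulating hormone on granulosa cells, the somatic cells that surround the oocyte. It binds the IGF1 receptor, a tyrosine kinase that signals through the docking proteins IRS1 and IRS2 to the PI3K-AKT and RAS-MAPK arms. The insulin receptor uses the same docking proteins, and the IGF2 receptor takes IGF2 up for degradation. IGF-binding proteins hold IGFs in the extracellular fluid, and pregnancy-associated plasma protein A (PAPPA) cuts IGFBP4 and IGFBP5 and so frees the bound ligand.

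Libraries were made by CEL-Seq, which sequences the 3′ end of each polyadenylated transcript, so that a transcript gives about 1 fragment whatever its length, and levels of different genes can be set side by side without division by length. Levels are the authors' normalized counts, reads divided by a size factor of each library. The libraries of DSS mice held 3434761 to 8564770 reads and those of control mice 3095386 to 4807853 reads in genes. Markers of granulosa, stromal, luteal and oocyte cells were found in every library. The theca marker Insl3 was at 0 in all 30 libraries, while the theca list as a whole was detected. 7 ovaries from 6 mice held more than 5000 normalized counts of Ovgp1, an oviduct secretory product. The left ovary of mouse DSS_11.2 stood farthest apart, with the highest summed oviduct, adipose, stroma, smooth muscle and surface epithelium markers of all 30 libraries and the lowest summed granulosa, luteal and oocyte markers. Mice are named here by their group and number, and results that rest on DSS_11.2 are given with and without it. In bulk tissue, fewer cells of a type and less RNA per cell cannot be told apart.

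Promoter sequence was available from the RefSeq annotation of the build GRCm38.p6 for 8 of the 10 genes, as windows of 300 bases that start 250 bases before the gene start. Both strands were searched for 4 motifs: the E-box CACGTG, bound by basic helix-loop-helix factors, the FOXO element GTAAACA, the cAMP response element TGACGTCA and the TATA element TATAAA. The E-box and the cAMP response element are palindromes, and no match in these genes overlapped another. The E-box was in a window of each of Igf2r, Irs1, Irs2 and Igfbp2, against 7.15% of 32851 promoter windows in the same table, and Igf2r held it at 2 places, 48 and 7 bases before the start. A further window of Igfbp2, at chr1:72825137-72825436, held none of the 4 motifs. The FOXO element, in 3.65% of windows, and the cAMP response element, in 1.79%, were in none of the 8 genes' windows. The TATA element, in 13.62% of windows, was in that of Igfbp4. The stretches around the E-boxes of both docking proteins, of Igf2r (both places) and of Igfbp2, and around the TATA element of Igfbp4, are shown because they are the matches that the family holds and because Irs2 and Igfbp4 are among the transcripts that differed between ovaries below. Each is read 5′ to 3′ on the strand of its gene, with the motif in capitals.
Irs1, chr1:82291532-82291571, minus strand: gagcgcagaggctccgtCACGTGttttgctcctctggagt
Irs2, chr8:11008951-11008990, minus strand: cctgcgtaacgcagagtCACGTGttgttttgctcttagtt
Igf2r, chr17:12769732-12769771, minus strand: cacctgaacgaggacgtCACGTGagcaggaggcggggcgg
Igf2r, chr17:12769691-12769730, minus strand: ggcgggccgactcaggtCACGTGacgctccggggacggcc
Igfbp2, chr1:72824321-72824360, plus strand: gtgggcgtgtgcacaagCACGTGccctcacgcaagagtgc
Igfbp4, chr11:99041199-99041238, plus strand: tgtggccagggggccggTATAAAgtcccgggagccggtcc
A match describes these letters and does not show that a factor binds there.

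Igfbp5 was the most abundant of the 10 transcripts, at 2080 ± 690 normalized counts (SD, n = 30 ovaries), and ranked 228th of the 14646 genes tested. Igf1r followed at 950 ± 94.5, then Igf1 at 457 ± 149, Irs1 at 321.98 ± 49.93, Igfbp2 at 277 ± 44.6, Igfbp4 at 217 ± 65.02, Igf2r at 182 ± 40.02, Irs2 at 122 ± 28.2, Insr at 79.2 ± 15.6 and Pappa at 78.2 ± 33.9 (SD, n = 30 each). The step between Igfbp5 and Igf1r was seen in all 30 ovaries and that between Igf1r and Igf1 in 29, and the means of these neighbours lay farther apart than their SDs. From Igf1 downwards every neighbour overlapped the next within 1 SD. Insr and Pappa were not ordered, with Insr above Pappa in 15 of 30 ovaries. The receptor for IGF1 was thus read at a higher level than its ligand in 29 of 30 ovaries. The plot of the 10 transcripts by ovary shows these levels and their spread.

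**Figure D1:**
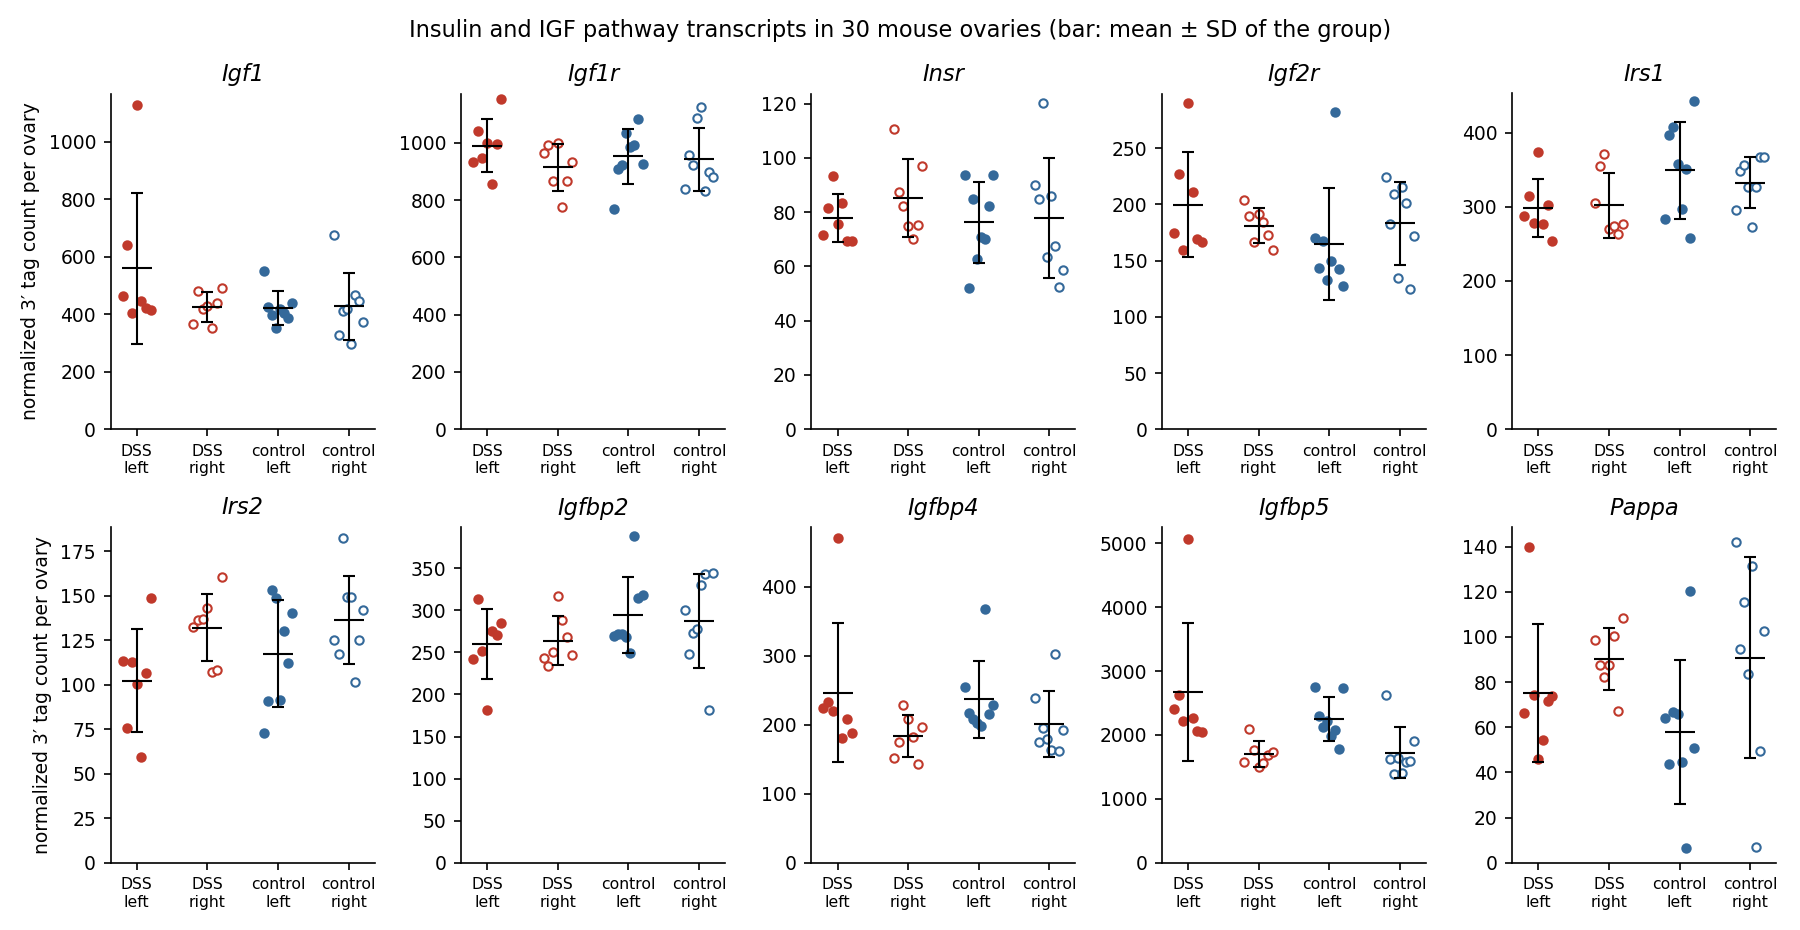
Normalized 3′ tag counts (linear axes from 0) of the 10 transcripts in every ovary, with DSS mice in red, control mice in blue, left ovaries filled and right ovaries open; the black bar is the group's mean ± SD (7 DSS and 8 control ovaries a side). A single DSS left ovary stands high for Igf1 (1126.91), Igfbp4 (470.17) and Igfbp5 (5068.43), and a pair of control ovaries stands near the floor for Pappa (6.63 and 7.01).

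The first comparison asked whether DSS colitis before puberty left a difference in these transcripts in the adult ovary. None of the 10 passed the test. Igf1, Insr, Igf2r, Igfbp5 and Pappa averaged higher in DSS mice, and Irs1, Irs2, Igfbp2 and Igfbp4 averaged lower, by amounts within the spread between mice. Igf1r was nearly level, at a log2 difference of 0.01. Counts of both ovaries of a mouse were averaged, and limma was applied to log2(mean + 1) with Benjamini-Hochberg adjustment over all 14646 genes. By this test 0.0% of all genes passed, 1169 genes (7.98%) had an unadjusted p under 0.05, and 1 of the 10 transcripts, Irs1, was among the latter. On the same design edgeR called 6 genes and DESeq2 52, with none of the 10 in either set. The median log2 difference of the 10 was 0.05, beside 0.002 over all genes tested.

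Igf1 (ENSMUSG00000020053.18, chr10:87858265-87937342, plus strand, GRCm38 as deposited) encodes the ligand that the ovary makes locally. The mouse means ran from 399.0 through a median of 430.4 to 778.0 normalized counts in DSS mice, against 357.9, 405.5 and 614.5 in control mice. In DSS mice Igf1 averaged 492.95 ± 137 (SD, n = 7) and in control mice 425 ± 80.4 (SD, n = 8), a log2 difference of 0.19 ± 0.13 (SE; limma, adjusted p = 0.733). Of the 7 DSS mice, 6 lay above the control median, and 5 control mice lay inside the DSS range. The difference was 0.08 without mouse DSS_11.2, whose left ovary held 1126.91 normalized counts of Igf1 and whose right ovary held 429.11, and 0.03 in right ovaries alone.

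The 3 receptors overlapped between the groups. Igf1r (chr7:67952827-68233968, plus strand), the receptor tyrosine kinase for both IGFs, averaged 952.5 ± 76.9 normalized counts in DSS mice and 947.8 ± 85.2 in controls (SD, n = 7 and 8). Its log2 difference was 0.01, with a 95% interval of -0.13 to 0.14, the narrowest interval of the 10. Insr (chr8:3121761-3279617, minus strand), the insulin receptor, averaged 81.6 ± 6.92 in DSS mice and 77.1 ± 13.6 in controls (log2 difference 0.09, interval -0.11 to 0.30). Igf2r (chr17:12682106-12769664, minus strand), the scavenging receptor, averaged 190.5 ± 28.2 in DSS mice and 174 ± 36.7 in controls (log2 difference 0.14, interval -0.11 to 0.40, and 0.09 without mouse DSS_11.2). The gene Airn overlaps Igf2r on the other strand, and Insr overlaps 2 short loci, but none of these reaches the last 2000 bases where 3′ tags fall.

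Irs1 (chr1:82232801-82291416, minus strand), a docking protein that the activated receptors phosphorylate, had the smallest p of the 10. Its mouse means were 265.7 at the lowest, 296.4 at the median and 334.4 at the highest in DSS mice, against 284.6, 340.9 and 405.1 in control mice. All 7 DSS mice lay below the control median of Irs1, and 3 of the 8 control mice lay inside the DSS range. The log2 difference was -0.18 ± 0.08 (SE, interval -0.35 to -0.01), with an unadjusted limma p of 0.0384 and an adjusted p of 0.602. Leaving out each mouse in turn gave differences of -0.21 to -0.14. Gm9747 lies on the other strand in the last 2000 bases of Irs1, and the strand setting of the counting is not given in the sources used here, so the counts of Irs1 may hold reads of both. Irs2 (chr8:10984381-11008458, minus strand), its paralogue, averaged 117.1 ± 21.98 in DSS mice and 126.9 ± 23.6 in controls (log2 difference -0.12, interval -0.38 to 0.15), and the DSS range took in 7 of the 8 control mice. Without the 7 ovaries rich in Ovgp1 the difference of Irs2 was 0.02. That setting partly mixed treatment with side. Apart from mouse DSS_11.1, which lost both ovaries, it took only left ovaries from DSS mice and only right ovaries from controls. Irs2 was higher in the right ovary of 14 of 15 mice, and the part of side in the change from -0.12 to 0.02 was not tested.

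Among the binding proteins, Igfbp2 (chr1:72824503-72852774, plus strand) averaged 262.01 ± 14.5 normalized counts in DSS mice and 290.7 ± 39.2 in controls (SD, n = 7 and 8). Its log2 difference was -0.14 ± 0.07 (SE; limma, adjusted p = 0.648), and 1 of the 7 DSS mice lay above the control median. The DSS mice lay between 242.8 and 282.2, inside the control range of 248.0 to 366.1 but for the lowest. Igfbp4 (chr11:99041244-99054692, plus strand), a binding protein that PAPPA cuts, averaged 215 ± 57.1 in DSS mice and 219 ± 51.0 in controls (log2 difference -0.03, interval -0.33 to 0.26). The difference was -0.15 without mouse DSS_11.2 and 0.06 without mouse control_15.3. Igfbp5 (chr1:72857632-72874884, minus strand) averaged 2188.9 ± 509.5 in DSS mice and 1984 ± 350.3 in controls (log2 difference 0.13, interval -0.12 to 0.39). That difference was 0.03 without mouse DSS_11.2, whose ovaries averaged 3280.6, and -0.13 without the Ovgp1-rich ovaries. The latter setting partly mixed treatment with side, as described for Irs2, and Igfbp5 was higher in the left ovary of 15 of 15 mice. Igfbp2 and Igfbp5 lie tail to tail on chromosome 1, with 4857 bases between their deposited 3′ ends.

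Pappa (chr4:65124174-65357809, plus strand) averaged 82.7 ± 15.9 normalized counts in DSS mice and 74.3 ± 29.2 in controls (SD, n = 7 and 8), with a log2 difference of 0.40 ± 0.41 (SE; limma, adjusted p = 0.827). Mouse control_15.3 averaged 6.82 for Pappa, while all 7 DSS mice lay at 66.7 and above. Without that mouse the difference was -0.03. The plot of log2 differences shows all 10 with their intervals.

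**Figure D2:**
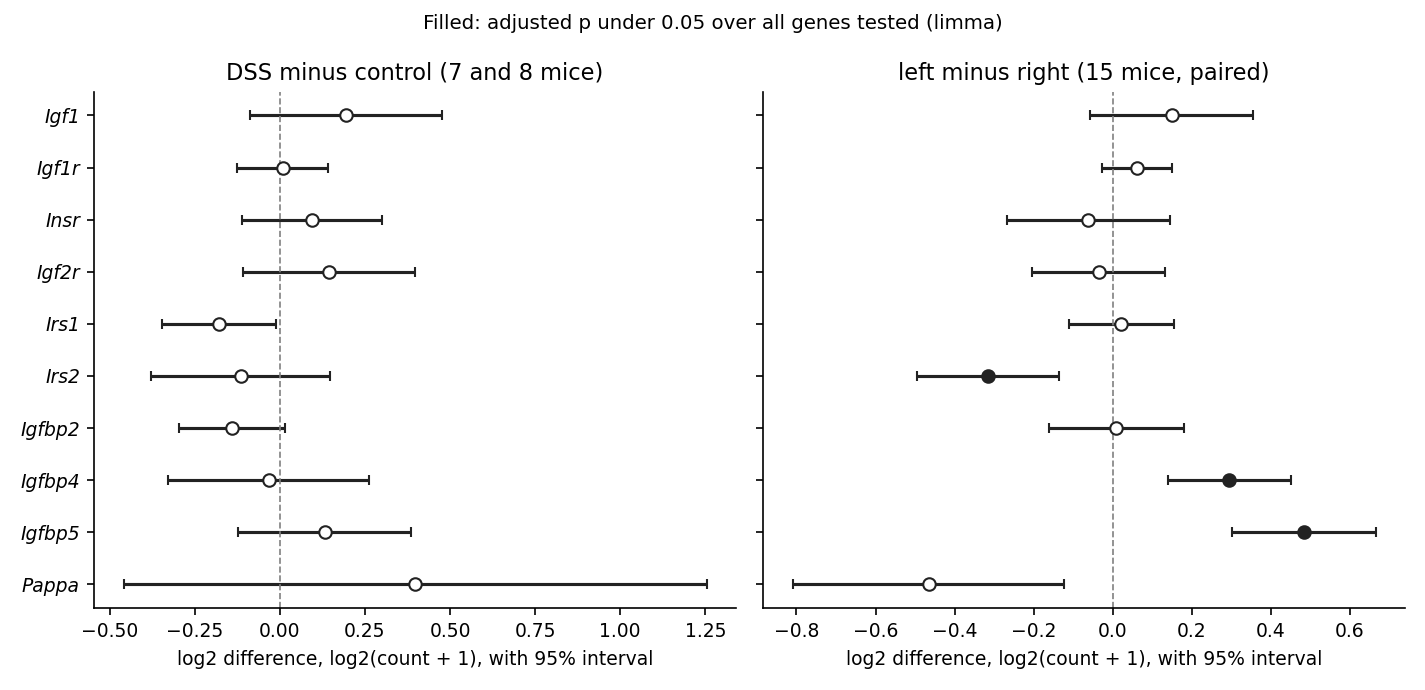
Log2 differences with 95% intervals (limma, log2(count + 1)) for DSS minus control mice (left panel, 7 and 8 mice) and for left minus right ovaries of the same mouse (right panel, 15 mice), with filled points where the adjusted p was under 0.05. No point is filled in the DSS panel; Irs2 (-0.32), Igfbp4 (0.30) and Igfbp5 (0.48) are filled in the side panel.

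The wider pathway was described with a list of 81 genes in 10 roles, of which 72 were tested. Those not tested were Ins1, Ins2, Insrr, Irs3, Irs4, Igfbp1, Igfals, Pappa2 and Trib3, with means under 5. Of the 72, 29 averaged higher and 43 lower in DSS mice, 0 passed the limma test in either direction, and 5 had an unadjusted p under 0.05. Over all genes tested, 50.6% averaged higher and 7.98% had an unadjusted p under 0.05, so the list held no excess of such genes. The 5 included Adam28, Igf2, Irs1 and Pik3r2. Adam28, a metalloprotease that can cut IGFBP3, averaged 13.8 ± 3.91 normalized counts in DSS mice and 8.96 ± 3.61 in controls, and all 7 DSS mice lay above its control median (log2 difference 0.61, adjusted p = 0.539). Igf2, the second IGF ligand, averaged 33.9 ± 4.65 in DSS mice and 27.6 ± 5.27 in controls (log2 difference 0.29, adjusted p = 0.577). Gm49394 overlaps the end of Igf2 on the same strand, so that its count is uncertain. Pik3r2, a regulatory subunit of PI3K, averaged 34.8 ± 7.03 in DSS mice and 42.7 ± 7.27 in controls (log2 difference -0.29, adjusted p = 0.611), and 6330537M06Rik overlaps its end on the other strand.

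By role, none of the groups held a gene that passed. The 4 FOXO factors, transcription factors that AKT phosphorylates, averaged lower in DSS mice in all 4 cases, with Foxo4 at 217 ± 13.8 in DSS mice and 239 ± 28.8 in controls (log2 difference -0.13, adjusted p = 0.648). In the RAS-MAPK arm 2 of 10 genes averaged higher and 8 lower, and Mapk3, the kinase ERK1, averaged 462.3 ± 14.9 in DSS mice and 493.0 ± 26.7 in controls (log2 difference -0.09, adjusted p = 0.629). Of 8 negative regulators 3 averaged higher and 5 lower, with the tyrosine phosphatase Ptpn1 at 191.6 ± 16.29 in DSS mice and 212 ± 20.7 in controls (log2 difference -0.14, adjusted p = 0.63). In the growth hormone axis 4 of 5 averaged higher, and the transporter Slc2a4, abundant in fat and muscle, averaged 12.1 ± 12.5 in DSS mice and 6.96 ± 8.16 in controls (log2 difference 0.71, adjusted p = 0.718). Summed adipose markers reached 11506.9 in DSS ovaries and 4105.5 in control ovaries, and all 7 tested adipose markers averaged higher in DSS mice, with 0 passing the test; the part of fat in the Slc2a4 value was not tested.

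The second comparison set the left against the right ovary of each mouse. Igfbp5 and Igfbp4 were higher in the left ovary and Irs2 was lower. These 3 of 10 transcripts passed the limma test with the mouse as a block, beside 10.2% of all genes tested (1488 of 14646, with 4.56% higher and 5.6% lower in the left ovary). The labels give every left ovary an odd and every right ovary an even library number, so anything that followed that numbering in the laboratory cannot be told apart from the side.

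Igfbp5 in the left ovary ran from 1773.0 through a median of 2224.8 to 5068.4 normalized counts, against 1385.5, 1616.5 and 2619.4 in the right ovary. The left ovary was higher in 15 of 15 mice. Igfbp5 averaged 2445 ± 777 in left ovaries and 1714 ± 310 in right ovaries (SD, n = 15 each), a ratio of means of 1.43 and a log2 difference of 0.48 ± 0.09 (SE; limma, adjusted p = 0.00133). It was 0.39 without mouse DSS_11.2, in which the left ovary held 5068.43 and the right 1492.70. Within DSS mice the difference was 0.58 (adjusted p = 0.106) and within control mice 0.40 (adjusted p = 0.00321).

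Igfbp4 in the left ovary ran from 180.7 through 217.7 to 470.2 normalized counts, against 143.2, 182.6 and 302.4 in the right ovary. It averaged 241.2 ± 76.9 in left ovaries and 193 ± 40.1 in right ovaries (SD, n = 15 each), a ratio of means of 1.25. The log2 difference was 0.30 ± 0.08 (SE; limma, adjusted p = 0.015), and the left ovary was higher in 12 of 15 mice, 4 of 7 with DSS and 8 of 8 controls. Without mouse DSS_11.2 the difference was 0.23 (adjusted p = 0.0112). All 6 tested IGF-binding proteins had log2 differences above 0, as did 51.5% of all genes tested, and Igfbp3, Igfbp6, Igfbp7 and Igfbp2 did not pass the test. Igfbp2 (0.009) was higher in the left ovary of 7 of 15 mice, Igfbp6 (0.03) of 6 and Igfbp3 (0.24) of 8. Igfbp7, which binds IGFs weakly, was higher in the left ovary of 13 of 15 mice, at 1775 ± 111 in left ovaries and 1672 ± 126 in right ovaries (log2 difference 0.09, adjusted p = 0.0891). Polr2b overlaps the end of Igfbp7 on the other strand, so its count is uncertain.

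Irs2 in the left ovary ran from 59.18 through 111.9 to 153.3 normalized counts, against 101.7, 136.1 and 182.3 in the right ovary. It averaged 110.4 ± 29.5 in left ovaries and 134.3 ± 21.6 in right ovaries (SD, n = 15 each), a log2 difference of -0.32 ± 0.09 (SE; limma, adjusted p = 0.0221). The right ovary was higher in 14 of 15 mice, the exception being mouse control_15.3 with 129.96 on the left and 101.69 on the right. Without the 6 mice that held an ovary rich in Ovgp1, the difference of Irs2 was -0.26 (limma, adjusted p = 0.162). That fit held fewer mice, because a mouse with 1 ovary left cannot be paired. Irs1, its paralogue, did not pass, at 0.02 (adjusted p = 0.88).

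Pappa was lower in the left ovary of 12 of 15 mice without passing the test. It averaged 65.9 ± 31.4 normalized counts in left ovaries and 90.5 ± 32.7 in right ovaries (SD, n = 15 each), a log2 difference of -0.47 ± 0.17 (SE; limma, adjusted p = 0.0795). The other way went mouse DSS_15.1, and by more mouse DSS_10.4, with 139.74 on the left and 87.39 on the right, and mouse control_15.4, with 120.16 on the left and 49.39 on the right. Without mouse control_15.4 the difference was -0.59 (adjusted p = 0.00986), without mouse DSS_10.4 it was -0.55 (adjusted p = 0.0361), and DESeq2 on all mice gave -0.49 (adjusted p = 0.0351). These were 3 of 26 alternative settings, and Pappa did not pass in the others, edgeR among them. The plot of paired ovaries shows these 4 transcripts. The other 6 had log2 differences from -0.06 for Insr to 0.15 for Igf1, with adjusted p-values of 0.392 and above, and that of Igf1 was 0.06 without mouse DSS_11.2.

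**Figure D3:**
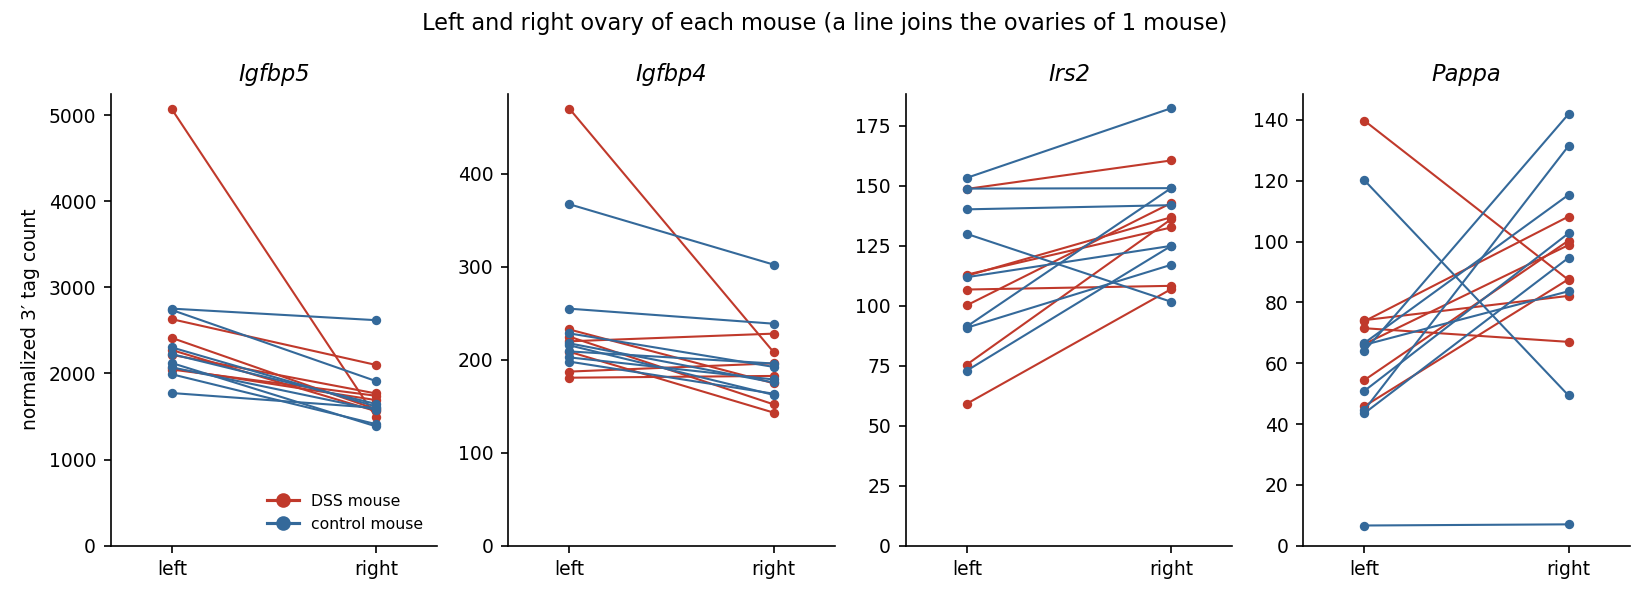
Normalized 3′ tag counts (linear axes from 0) of Igfbp5, Igfbp4, Irs2 and Pappa in the left and the right ovary, where a line joins the ovaries of 1 mouse (DSS mice red, control mice blue). Igfbp5 falls to the right in all 15 mice, Irs2 climbs to the right in 14, and for Pappa 12 lines climb while mouse control_15.3 lies near 7 on both sides.

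Other transcripts also differed between sides. All 7 tested keratinocyte markers passed the test as higher in the left ovary, and their summed level was 129.3 to 6609.3 in left ovaries and 36.7 to 899.9 in right ovaries, higher on the left in 15 of 15 mice. Of 7 macrophage markers 5 averaged higher in the left ovary and 3 of these passed the test, with sums of 590.5 to 1038.9 in left and 526.6 to 751.8 in right ovaries. Of 8 stroma markers 7 averaged higher there and 2 passed, and the counts were the same for the 8 surface epithelium markers. Stroma sums were 12892.7 to 27867.8 in left ovaries and 12357.8 to 22134.1 in right ovaries. Across the 15 mice, the left minus right log2 difference of Igfbp4 went with that of the stroma sum (Pearson r 0.87, Spearman rho 0.74, and r 0.66 over 13 mice without the 2 farthest), which is a description over libraries that share their depth and handling. The left minus right difference of Igfbp5 went against that of the luteal sum (r -0.88, rho -0.63) and with those of the surface epithelium (r 0.83, rho 0.56), smooth muscle and pericyte (r 0.81, rho 0.38) and stroma sums (r 0.79, rho 0.28). Without the 2 farthest mice of each list, DSS_11.2 among them, these r were -0.45, 0.39, -0.08 and -0.04. For Igfbp5 and the keratinocyte sum r was -0.02 and rho -0.07. For Igfbp2 and the luteal sum r was 0.9, rho 0.61, and r 0.69 over 13 mice without the 2 farthest. For Irs1 and the luteal sum these values were -0.8, -0.83 and -0.66. The part of these marker lists in the side differences was not tested.

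Of the 72 tested pathway genes, 42 averaged higher and 30 lower in the left ovary, and 7 passed the test, 3 of them higher and 4 lower. That share, 9.72%, was near the 10.2% of all genes tested. Beside Igfbp5, Igfbp4 and Irs2, the genes that passed included Gsk3a, Grb10 and Rheb. Gsk3a, a kinase that AKT inhibits, averaged 358 ± 35.3 normalized counts in left ovaries and 507 ± 44.2 in right ovaries, lower on the left in 15 of 15 mice (log2 difference -0.50 ± 0.05 SE; limma, adjusted p = 1.6e-06). 9130221H12Rik overlaps the end of Gsk3a on the other strand, so its count is uncertain. Grb10, an adaptor that restrains the insulin and IGF1 receptors, averaged 120.8 ± 16.92 in left ovaries and 159.0 ± 22.8 in right ovaries (log2 difference -0.39, limma, adjusted p = 0.00145). Rheb, the GTPase that activates mTORC1, averaged 305.6 ± 32.7 in left and 261.8 ± 19.8 in right ovaries (log2 difference 0.22, adjusted p = 0.00879). In the roles with no gene past the test, the smallest p-values belonged to Foxo4 (-0.15, adjusted p = 0.0674), Stat5b of the growth hormone axis (-0.18, adjusted p = 0.25), Inppl1 of the negative regulators (0.08, adjusted p = 0.353), Igf1 (0.15, adjusted p = 0.392) and Igf1r (0.06, adjusted p = 0.409). Phox2a overlaps the end of Inppl1 on the other strand.

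**Figure D4:**
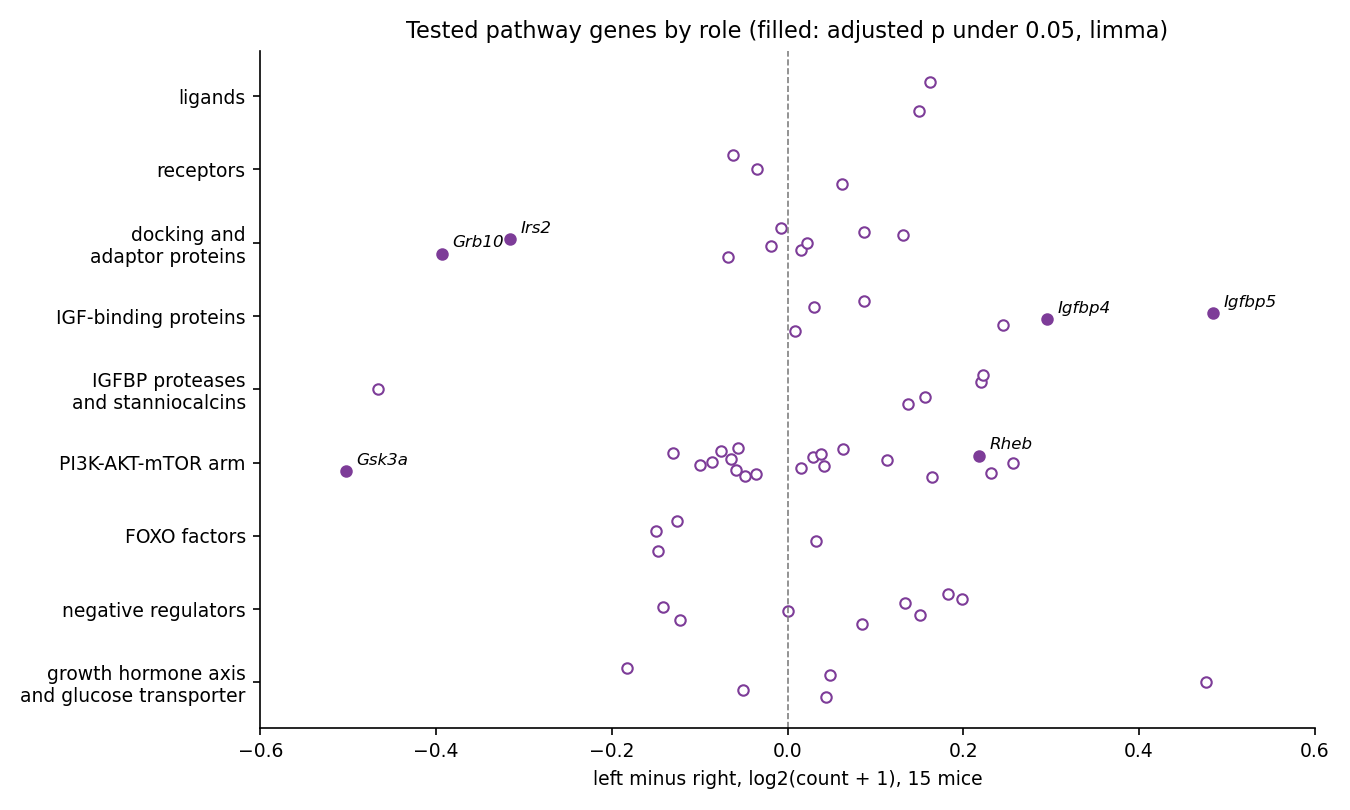
Left minus right log2 differences (log2(count + 1), 15 mice) of the tested pathway genes by role, with the RAS-MAPK arm not drawn, 1 point a gene, filled and named where the adjusted limma p was under 0.05. The filled points are Igfbp5 (0.48), Igfbp4 (0.30) and Rheb (0.22) to the right of 0, and Irs2 (-0.32), Grb10 (-0.39) and Gsk3a (-0.50) to the left of it; all 6 IGF-binding proteins lie to the right of 0.

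The third comparison asked whether the DSS difference was itself different on the 2 sides, by comparing the left minus right log2 values of DSS mice with those of controls. None of the 10 transcripts and 0.0% of all genes passed the limma test, while 1248 of 14646 genes had an unadjusted p under 0.05. Igf2r had the smallest p of the 10, at a difference of 0.29 ± 0.15 (SE; limma, unadjusted p = 0.0763, adjusted p = 0.623), with its left minus right value averaging 0.12 in DSS mice and -0.17 in controls. For Igf1 the values were 0.30 in DSS mice and 0.01 in controls, a difference of 0.29 (adjusted p = 0.688) that was 0.11 without mouse DSS_11.2. Igfbp5 (0.18), Igfbp4 (0.13), Igf1r (0.10), Insr (-0.12), Irs1 (-0.07), Irs2 (-0.17), Igfbp2 (-0.08) and Pappa (0.26) had adjusted p-values of 0.772 and above. Without mouse DSS_11.2, Igfbp5 was at -0.012, Igfbp4 at -0.006 and Igfbp2 at 0.05. Of the wider list, Grb14, an adaptor that inhibits the insulin receptor, had the smallest p (-0.48, adjusted p = 0.542), and Htra1, a protease that cuts IGF-binding proteins, followed among the proteases (-0.35, adjusted p = 0.546). In other roles the smallest p-values belonged to Igfbp7 (0.09, adjusted p = 0.716), the kinase Akt2 (0.19, adjusted p = 0.594), Foxo1 (-0.29, adjusted p = 0.653), the phosphatase Ptprf (0.34, adjusted p = 0.73) and Stat5a (0.63, adjusted p = 0.594). Fgfr2 overlaps the end of Htra1, and Stat3 that of Stat5a, each on the other strand.

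Over the 30 ovaries, Pappa varied most and Igf1r least. The coefficient of variation (CV) was 43.3% for Pappa, 33.2% for Igfbp5, 32.7% for Igf1, 29.95% for Igfbp4, 23.0% for Irs2, 22.02% for Igf2r, 19.6% for Insr, 16.1% for Igfbp2, 15.5% for Irs1 and 9.95% for Igf1r. Counting error alone, at the mean number of reads per ovary, would give a CV from 2.17% for Igfbp5 to 11.14% for Pappa, so that every transcript varied more than its counting error. The median CV of the 10 was 22.5%, beside 14.2% over the 6032 tested genes with means between the lowest and the highest of the 10. The share of variance that lay between mice (the intraclass correlation of log2 counts) was 0.71 for Pappa, 0.53 for Igfbp4, 0.43 for Igf1r and Irs2, 0.39 for Igf2r, 0.33 for Irs1, 0.21 for Igf1, 0.15 for Igfbp5, -0.05 for Insr and -0.06 for Igfbp2, with a median of 0.16 over those 6032 genes. For Insr and Igfbp2, then, the ovaries of 1 mouse were no more alike than ovaries of different mice.

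A single mouse stood apart for Pappa. In mouse control_15.3 the left ovary held 6.63 normalized counts and the right 7.01, while the other 28 ovaries lay between 43.54 and 141.91. The left library of mouse control_15.3 held 5 reads of Pappa. Without this mouse the CV of Pappa was 34.5% and the intraclass correlation -0.51. Over the remaining 14 mice a high left ovary went with a low right ovary (Pearson r -0.52, Spearman rho -0.47), as in mouse control_13.5 with 44.61 on the left and 131.43 on the right. Mouse control_15.3 had the lowest theca marker sums but one, 396.5 on the left, and the lowest, 358.5 on the right. Its luteal sums were 2124.5 on the left and 2340.5 on the right, against a median of 5844.7 over control ovaries, and its stroma sums, 23235.8 on the left and 22134.1 on the right, were the highest after the left ovary of mouse DSS_11.2. Its Igf2r on the left, 282.47, and its Igfbp4, 367.35 on the left and 302.43 on the right, were the highest of the control ovaries.

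Mouse DSS_11.2 stood apart for Igf1, Igfbp4 and Igfbp5. Its left ovary held the highest Igf1, Igf2r, Igfbp4 and Igfbp5 and the lowest Igfbp2 (181.24) of all 30, and its right ovary lay inside the range of the others for each. Without this mouse the CV was 18.9% for Igf1, 20.1% for Igfbp5 and 21.9% for Igfbp4. The intraclass correlation of Igfbp5 was then 0.68 and that of Igfbp4 0.70. Summed smooth muscle and pericyte markers in this left ovary were 24488.2, against 3533.8 in its right ovary, and summed granulosa markers were 9469.5, against 16087.7.

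Of the 45 pairs among the 10 transcripts, 6 had a Pearson r above 0.5 over the 15 mouse means with the group means removed, and 3 had an r below -0.5. Igf1 and Igfbp5 had the highest r, 0.87 (Spearman rho 0.59), which was 0.46 without mouse DSS_11.2 and mouse control_10.5. Igfbp4 and Igfbp5 held theirs, with r 0.62 and rho 0.76 over 15 mice and r 0.76 without the 2 farthest mice. Igf2r and Igfbp4 had r 0.71 (rho 0.51), and 0.55 without the 2 farthest. The 3 negative pairs, Pappa with Igfbp2 (-0.65), with Igfbp4 (-0.62) and with Igf2r (-0.51), were -0.14, 0.39 and 0.16 without the 2 farthest mice, so they rested on those mice. These values share library and depth and are given as descriptions.

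The genes most like each transcript over the 15 mice were named as the 3 with the highest r. For Igf1 these were Penk, Epsti1 and Gsn (r 0.96, 0.96 and 0.95), and for Igfbp5 they were Slc1a5, Fgf1 and Pdlim3 (r 0.96, 0.95 and 0.94). Igfbp4 was nearest to Dmpk, Col1a1 and Pdpn (r 0.94, 0.93 and 0.92), where Col1a1 encodes a collagen of stroma. Pappa was nearest to Plin4, Mmel1 and Clic3 (r 0.96, 0.96 and 0.95), which were 0.62, 0.53 and 0.52 without mice control_10.5 and control_15.3. Irs2 was nearest to Rab1b, Nploc4 and Gm29562 (r 0.92, 0.86 and 0.85), and Igf2r to Bves, Tstd3 and A430105I19Rik (r 0.87, 0.87 and 0.85). For Igf1r they included Nsmce3 and Terf2 (r 0.82 and 0.80), for Insr Gm36445, Tmsb10 and 2900052L18Rik (r 0.83, 0.79 and 0.76), for Irs1 Ndufa13, Sgsh and Gm24407 (r 0.78, 0.77 and 0.74), and for Igfbp2 Mfsd10, Sumf1 and Mt3 (r 0.82, 0.82 and 0.81).

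Set against summed cell type markers over the same 15 mice, the 10 transcripts took different places. Igf1 and Igfbp5 went with smooth muscle and pericyte markers (r 0.93 and 0.89, rho 0.68 and 0.75). They also went with surface epithelium (r 0.75 and 0.83, rho 0.55 and 0.76) and adipose markers (r 0.75 and 0.78, rho 0.59 and 0.4). With oviduct markers their r was 0.59 and 0.79 (rho 0.37 and 0.75). They went against granulosa markers (r -0.83 and -0.81, rho -0.43 and -0.55). Igfbp4 and Igf2r went with stroma markers (r 0.94 and 0.82, rho 0.74 and 0.76). Pappa went with luteal (r 0.83, rho 0.38), theca (r 0.74, rho 0.45) and endothelium markers (r 0.56, rho 0.61). It went against stroma markers (r -0.64, rho -0.14). The left minus right difference of Pappa went against that of the theca sum (r -0.71, rho -0.5, and r -0.28 over 13 mice without the 2 farthest). For the luteal sum these values were 0.58, 0.42 and 0.58. They were -0.64, -0.62 and -0.54 for the granulosa sum, and 0.61, 0.58 and 0.57 for the endothelium sum. The r of Igf1r, the receptor of least variation, stayed between -0.29 and 0.23 for all 12 lists over mouse means. The left minus right difference of Igf1r did go with that of the endothelium sum. There r was 0.74, rho 0.72, and r 0.64 over 13 mice without the 2 farthest. The values over mouse means rest in part on mouse DSS_11.2 and mouse control_15.3, described above, and were not computed without them. The map of correlations shows the r over mouse means for every list.

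**Figure D5:**
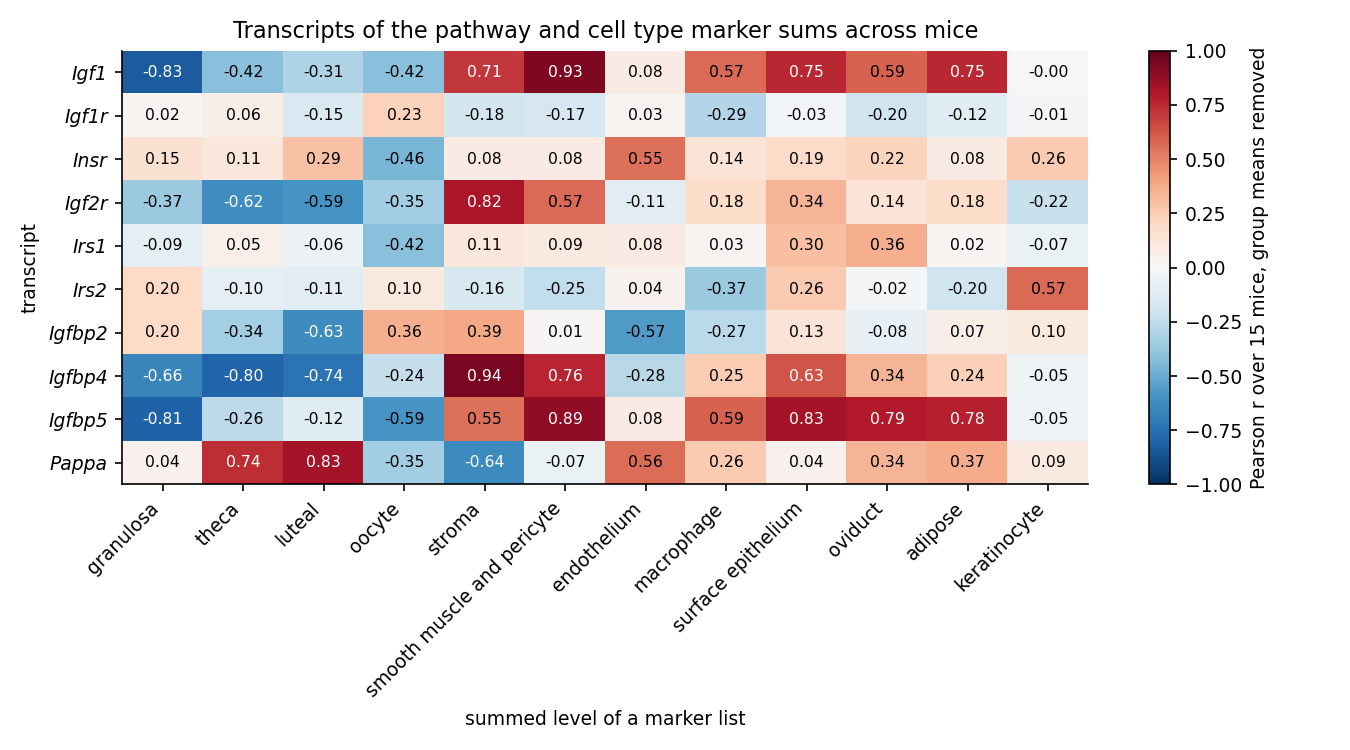
Pearson r over 15 mouse means (log2(count + 1), group means removed) between each of the 10 transcripts (rows) and the summed level of 12 cell type marker lists (columns), on a scale from -1 in blue to 1 in red. Dark cells include Igfbp4 with stroma (0.94), Igf1 (0.93) and Igfbp5 (0.89) with smooth muscle and pericyte, Igf1 with granulosa (-0.83), Igfbp5 with surface epithelium (0.83) and Pappa with luteal markers (0.83); the row of Igf1r is pale throughout.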

How the data were processed

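RNA from each ovary was extracted with TRIzol, cleaned on a Zymo column and made into CEL-Seq libraries with 3 pooled primers per sample, per the labels' protocols. The submitters' processing notes name TopHat, HTSeq, DESeq2 and the build GRCm38.p5; their versions, the strand setting and the use of molecular identifiers are not given in the sources used here. The authors deposited a signal per gene that is never negative, normalized counts, or reads divided by a size factor of the library. Each library's values were multiples of a step of its own (0.53 to 1.33), and dividing by it returned whole reads for 99.9% to 100.0% of values above 0 (tolerance 0.0051 normalized counts). For 3 libraries, whose step was within 1% of 1, this rests on the higher values. Reads per library numbered 3095386 to 8564770 (median 4305814), and counting errors cover sampling of reads only.

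The mouse was the replicate, and left and right ovaries were paired by the mouse number in the labels. limma 3.58.1 (R 4.3.3, trend, two-sided) was run on log2(value + 1) for genes averaging 5 or more, calling an adjusted p (Benjamini-Hochberg) under 0.05. Treatment was tested on the mean of both ovaries, side with mouse as a blocking factor, and their interplay on left minus right values. This scale understates changes of low genes. The labels do not say how mice were housed, so p-values of the treatment test measure the spread between these mice. Those of the side and interplay tests measure the spread of left minus right differences over these mice. The fits were tested on simulated data. Alternatives were edgeR 4.0.16 and DESeq2 1.42.0 on the recovered reads, pseudocounts of 0.5 and 5, no filter, a mean of at least 20, TMM scaling, each mouse left out, ovaries over 5000 normalized counts of Ovgp1 left out, single sides, single treatments, and other blocks. In the side and interplay tests, both ovaries of a mouse with an ovary over that Ovgp1 limit were left out. All 10 transcripts are described. Of the pathway list, genes past the threshold are named, otherwise the smallest p of each role. Igfbp3, Igfbp6 and, on the side comparison, Igfbp7 were named after their values were seen. Some genes that this rule names are not reported here. The genes, lists and tests were chosen with earlier results of these data known. Promoters came from RefSeq (GRCm38.p6) and overlaps from GENCODE M21; the deposited 3′ ends of the 10 genes lie 300 bases past the annotated ends.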

Additional observations from a re-analysis of the deposited data

Results flagged for a closer look

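Of 40 groups of ovaries (10 transcripts on each side of each treatment), 9 held a highest ovary far from the others of its group, where chance flags about 1 group in 20. The 9 come from 4 mice. The 40 groups share ovaries across transcripts and are not independent, so that rate cannot judge the count of 9. The left ovary of mouse DSS_11.2 had Igf1 at 1126.91 normalized counts (other DSS left ovaries 405.28 to 640.56), Igfbp4 at 470.17 (180.72 to 232.61) and Igfbp5 at 5068.43 (2045.67 to 2630.8). Mouse control_10.5 had Igf1 at 551.43 in the left ovary (other control left ovaries 353.64 to 439.84) and 677.58 in the right (other control right ovaries at most 468.1), and Igfbp5 at 2619.39 in the right ovary (1385.49 to 1911.42). The left ovary of mouse control_15.3 had Igf2r at 282.47 (127.77 to 170.29) and Igfbp4 at 367.35 (198.01 to 254.99). The left ovary of mouse DSS_10.4 had Pappa at 139.74 (other DSS left ovaries 45.84 to 74.15).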

How the results depend on the processing

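For DSS against control, no alternative called any of the 10 transcripts, and 247 of 260 values kept their direction. The count of genes called, 0, was 10 without the ovaries over 5000 Ovgp1, 6 with edgeR, 52 with DESeq2, 11 in left ovaries only, 1 in right ovaries only and 3 with the number before the point of the mouse name as a replicate block, and 0 to 13 with each mouse left out. Directions turned for Igf1r in right ovaries only (-0.04), Irs2 (0.02) and Igfbp5 (-0.13) without the Ovgp1-rich ovaries, and Igfbp4 in left ovaries only (0.011). Leaving out the Ovgp1-rich ovaries partly mixed treatment with side, as described for Irs2 above. With each mouse left out the ranges that crossed 0 were -0.025 to 0.044 for Igf1r, -0.15 to 0.058 for Igfbp4 and -0.031 to 0.50 for Pappa. For left against right, 241 of 260 values kept direction and call. Genes called, 1488, were 733 without the 6 mice that held an Ovgp1-rich ovary. They were 115 in DSS mice only, 384 in control mice only and 1163 with no replicate block. Of the 3 transcripts called, 1 remained with no replicate block (Igfbp5), 0 in DSS mice only and 1 in control mice only (Igfbp5). With each mouse left out 3 to 4 of the 10 were called, beside 1183 to 1569 of the 14646 genes tested. Directions turned in DSS mice only for Igf2r (0.12), Irs1 (-0.016) and Igfbp2 (-0.033), and the ranges with each mouse left out were -0.01 to 0.06 for Irs1 and -0.047 to 0.067 for Igfbp2. For the difference of the DSS effect on the 2 sides, genes called were 1 without those 6 mice and 0 to 2 with each mouse left out. Without the 6 mice that held an Ovgp1-rich ovary, Igfbp4 (-0.018), Igfbp5 (-0.016) and Pappa (-0.028) turned. With each mouse left out the ranges were -0.15 to 0.05 for Igfbp2, -0.006 to 0.20 for Igfbp4 and -0.012 to 0.24 for Igfbp5. The cause was not tested, and settings with fewer mice or ovaries hold fewer samples. Depth limits Insr and Pappa most, at a counting CV of 11.07% and 11.14%.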
